A study of Homo sapiens with 12 samples.

Results

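Cystatins are protein inhibitors of papain-like cysteine proteases, above all the lysosomal cathepsins. They block a protease by wedging tightly but reversibly into its active-site cleft. The stefins CSTA and CSTB lack a signal peptide and act inside the cell, whereas CST1, CST2, CST3, CST4, CST6 and CST7 are made with a signal peptide and enter the secretory pathway. In fibroblasts the best known secreted member is CST3 (cystatin C), which most tissues release constitutively, and CSTB (stefin B) is similarly widespread. CST1 (cystatin SN), CST2 (cystatin SA) and CST4 (cystatin S) are best known as proteins of saliva and tears, CST6 (cystatin M/E) as an inhibitor of skin, CSTA (stefin A) as a protein of epidermis and lymphoid tissue, and CST7 (cystatin F) as an inhibitor of leukocytes. The 8 genes were taken by symbol from the 62069 genes in the count table. They were chosen with earlier results of these data known, in particular that CST1 had no count without 4OHT and some with it, so every difference between vector/4OHT and vector below is a description of these genes with no test.

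RNA was measured in IMR90 ER:RAS cells, a line derived from human fetal lung fibroblasts that carries an oncogenic RAS fusion (ER:RAS) that is switched on by 4-hydroxytamoxifen (4OHT), which leads to oncogene-induced senescence (OIS). There were 4 groups of 3 libraries. The vector group was non-induced, and the vector/4OHT group received 100 nM 4OHT. The label of day 5 after induction and the passage were the same for all 12 libraries, the non-induced ones included. The growth notes give 7 days of culture, with a medium change on day 4. The shXPO7_3/4OHT and shXPO7_5/4OHT groups received 4OHT in the same way and were labelled by an shRNA against XPO7, a nuclear transport receptor. All 12 libraries come from this 1 line, so the RAS fusion was present in the vector libraries too, and no library had an XPO7 shRNA without 4OHT. The sources used here do not say whether the libraries of a group were separate cultures, and if they were not, the p-values measure only technical spread.

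Depth was 28534141 to 60397769 counts per library. XPO7 itself was at 129 to 143 CPM (counts scaled to a common library total) in the vector libraries, 127 to 144 CPM in vector/4OHT, 26.4 to 28.7 CPM in shXPO7_3/4OHT and 50.8 to 54.0 CPM in shXPO7_5/4OHT, so all 6 knockdown libraries matched their labels. All 8 of 8 fibroblast markers (COL1A1, COL1A2, COL3A1, VIM, PDGFRB, THY1, DCN and LUM) were expressed, with summed levels of 24000 to 27900 CPM in vector, 16700 to 18200 CPM in vector/4OHT, 17400 to 21300 CPM in shXPO7_3/4OHT and 19000 to 21800 CPM in shXPO7_5/4OHT. Some libraries stood apart from their group. By chi-square of counts per gene, vector replicate T was at 24.8 and 51.3 from its group (10.5 between the others), shXPO7_3/4OHT replicate T at 47.2 and 53.6 (4.6 between the others) and shXPO7_5/4OHT replicate A at 38.7 and 63.1 (13 between the others), while the vector/4OHT libraries were at 4.68 to 10.9. Without shXPO7_5/4OHT replicate A, the genes called between shXPO7_5/4OHT and vector/4OHT went from 90 to 3634. Values without these libraries are therefore given for CST3 and CSTB with 4OHT and for the cystatins tested with each shRNA. Among the proteases, they are given for CTSF and LGMN with 4OHT and for CTSH with shXPO7_5, and not in full for the rest.

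The salivary cystatins lie in 1 cluster and are so alike that reads can fit more than 1 of them. In GRCh38 with GENCODE 29, CST4 (ENSG00000101441) spans chr20:23685640-23689040, CST1 (ENSG00000170373) chr20:23747553-23751268 and CST2 (ENSG00000170369) chr20:23823769-23826731, all on the minus strand. Each has a coding sequence of 423 bases. CST1 and CST4 differed at 31 of them (92.7% identical) and shared an unbroken run of 152 bases. CST2 differed from CST4 at 32 bases (92.4% identical) and from CST1 at 37 (91.3% identical), with a longest shared run of 87 bases in both pairs.

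Windows slid along the whole transcripts show how far a read could be ambiguous. Of all windows of 25 bases in CST1, 44.4% occurred unchanged in CST4 and 11.7% in CST2. At 50 bases these shares were 27.0% and 5.3%, at 75 bases 14.0% and 1.9%, and at 100 bases 8.0% and 0%. At short windows CST4 was the most exposed of the 3 genes. Of its windows, 54.9% of those of 25 bases and 30.2% of those of 50 bases occurred in CST1, CST2 or CST5. The shares of CST1 windows found in CST2, CST4 or CST5 were 46.1% and 27.3%. At 75 and 100 bases CST4 (14.2% and 8.1%) and CST1 (14.0% and 8.0%) were nearly equal. In contrast, CST3 shared 1.3% of its windows of 25 bases with these 4 genes and none of 50 bases or more. Read length and the handling of multiply aligned reads are not stated in the labels or methods, so the division of counts among CST1, CST2 and CST4 is uncertain in every value below, whereas that of CST3 is not affected to this extent.

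CST1, a secreted inhibitor of cathepsins, had no count in any vector library and was the most abundant of the 3 salivary cystatins after induction. The vector/4OHT libraries T, A and B had 257, 170 and 399 counts, which is 7.02, 6.03 and 8.05 CPM. The mean was 7.03 ± 1.01 CPM (SD, n = 3). Against the 3 counts that a total of 0 over the vector group allows, the measured mean of CST1 was at least 255-fold higher in vector/4OHT. It was at least 310-fold higher in shXPO7_3/4OHT and at least 291-fold higher in shXPO7_5/4OHT. These limits, and those for CST4 and CST2 below, take the induced mean as measured, without its own counting error or spread. In bulk RNA, fewer cells expressing a gene and less RNA per cell cannot be told apart, so these levels do not say how many cells carried CST1. The vector libraries had 31467250 to 39359869 counts in all, and the induced ones 28534141 to 60397769.

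CST4 and CST2 followed the same split at lower levels. CST4 had 0 counts in the 3 vector libraries and 47, 32 and 62 counts in the vector/4OHT libraries T, A and B. Its mean there was 1.22 ± 0.0788 CPM (SD, n = 3), at least 44.4-fold above the vector group. CST2 had 0 counts in the vector libraries and 10, 8 and 15 counts in vector/4OHT, or 0.286 ± 0.0149 CPM and at least 10.4-fold higher. The induced and non-induced libraries did not overlap for any of the 3 genes, as they did not for 63.2% of all genes tested, and nothing is read from this since the genes were chosen on it. CST2 did not pass the filter on low counts, so it has no fitted fold change.

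Of a list of 10 salivary gland markers, ZG16B alone passed the filter, AMY1A, STATH, PIP and SMR3B were at 0 in all 12 libraries, and HTN1, HTN3, MUC7, PRB1 and PRH2 reached at most 11 counts. The summed level of the list was 0.309 to 0.583 CPM in vector, 2.45 to 2.74 CPM in vector/4OHT, 2.81 to 3.43 CPM in shXPO7_3/4OHT and 2.78 to 3.08 CPM in shXPO7_5/4OHT, and ZG16B, a secreted lectin-like protein, had 5 to 161 counts per library. ZG16B reached 3.06 CPM and each other gene of the list at most 0.272 CPM, so most of the rise in the sum came from ZG16B alone. This sum moved in the same direction as the salivary cystatins, and any link between them was not tested.

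The neighbours of these genes on chromosome 20 were nearly silent in all groups. Between CSTL1 and GGTLC1, the genes with more than 2 counts in any library were CST3, CST4, CST1 and CST2. CST5 (cystatin D), a close relative of the salivary cystatins that lies beside them, had 0 counts in all 12 libraries, as had CST8, CST9, CST11 and the pseudogenes CST2P1, CST9LP1, CST9LP2, CST12P, CST13P and CSTP1. CSTL1 and CST9L had at most 1 count in a library. Outside the cluster, NXT1 (348 to 618 counts) and GZF1 (718 to 1596 counts) were expressed in every library of every group.

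CST3 was abundant before induction and higher after it. It lies at chr20:23626706-23638473 on the minus strand (ENSG00000101439), in the same cluster. The vector libraries T, A and C were at 92.8, 91.3 and 81.9 CPM, and the vector/4OHT libraries T, A and B at 153, 148 and 135 CPM. Each induced library was above each non-induced one. The means were 88.7 ± 5.88 and 145 ± 9.53 CPM (SD, n = 3 each), a log2 fold change of 0.71 (SE 0.11), or 0.75 without vector replicate T. Summed over the group, CST3 had 16462 counts in vector/4OHT against 826 for CST1.

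CSTB, the cytosolic and nuclear stefin, went the other way. It lies at chr21:43772511-43776445 on the minus strand (ENSG00000160213). The vector libraries were at 136, 126 and 121 CPM and the vector/4OHT libraries at 102, 108 and 110 CPM, without overlap. The group means were 128 ± 7.72 and 106 ± 3.88 CPM (SD, n = 3 each), a log2 fold change of -0.26 (SE 0.076). With a correction for GC content and length the value was -0.13, it was -0.21 without vector replicate T, and it was -0.36 with upper-quartile scaling, under which the median over all genes was at -0.10 and 38.3% of the genes called were higher, against 48.8% with TMM scaling.

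CSTA, the stefin of epidermis (chr3:122325244-122341972, plus strand, ENSG00000121552), was barely detected. It had 0, 0 and 1 count in the vector libraries, 7, 7 and 6 in vector/4OHT, 5, 11 and 11 in shXPO7_3/4OHT, and 8, 5 and 5 in shXPO7_5/4OHT. The induced libraries all lay above the non-induced ones, at a depth where a few reads make the difference. Of 8 epithelial markers, KRT5, KRT14 and KRT1 were at 0 in all libraries, and the summed level was 22.2 to 27.5 CPM in vector and 22.3 to 29 CPM in vector/4OHT, almost all of it KRT10.

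CST6, the skin inhibitor that also blocks legumain (chr11:66011841-66013505, plus strand, ENSG00000175315), had few counts and more of them without 4OHT. The vector libraries T, A and C had 3, 11 and 6 counts. The vector/4OHT libraries had 0, 1 and 2, those of shXPO7_3/4OHT 2, 2 and 3, and those of shXPO7_5/4OHT 0, 0 and 1. The vector library with 3 counts was separated from the highest vector/4OHT library by 1 count. CST7, the leukocyte inhibitor (chr20:24949230-24959928, plus strand, ENSG00000077984), had 1 count in shXPO7_3/4OHT replicate A and 0 in the other 11 libraries. The leukocyte markers CD3E, GZMB and MS4A1 were at 0 in all 12 libraries as well, and the 9 genes of that list summed to at most 0.822 CPM in any library.

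Altogether 4 of the 8 cystatins passed the filter, namely CST1, CST4, CST3 and CSTB, while CST2, CST6, CST7 and CSTA did not. Of the 4 tested, 3 were higher and 1 was lower in vector/4OHT at an adjusted p under 0.05, where 50.9% of all 15284 genes tested were called (24.8% higher and 26.1% lower). Since the genes were chosen on this contrast, and CST1 and CST4 passed the filter only through the induced libraries, nothing is read from that count.

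**Figure D1:**
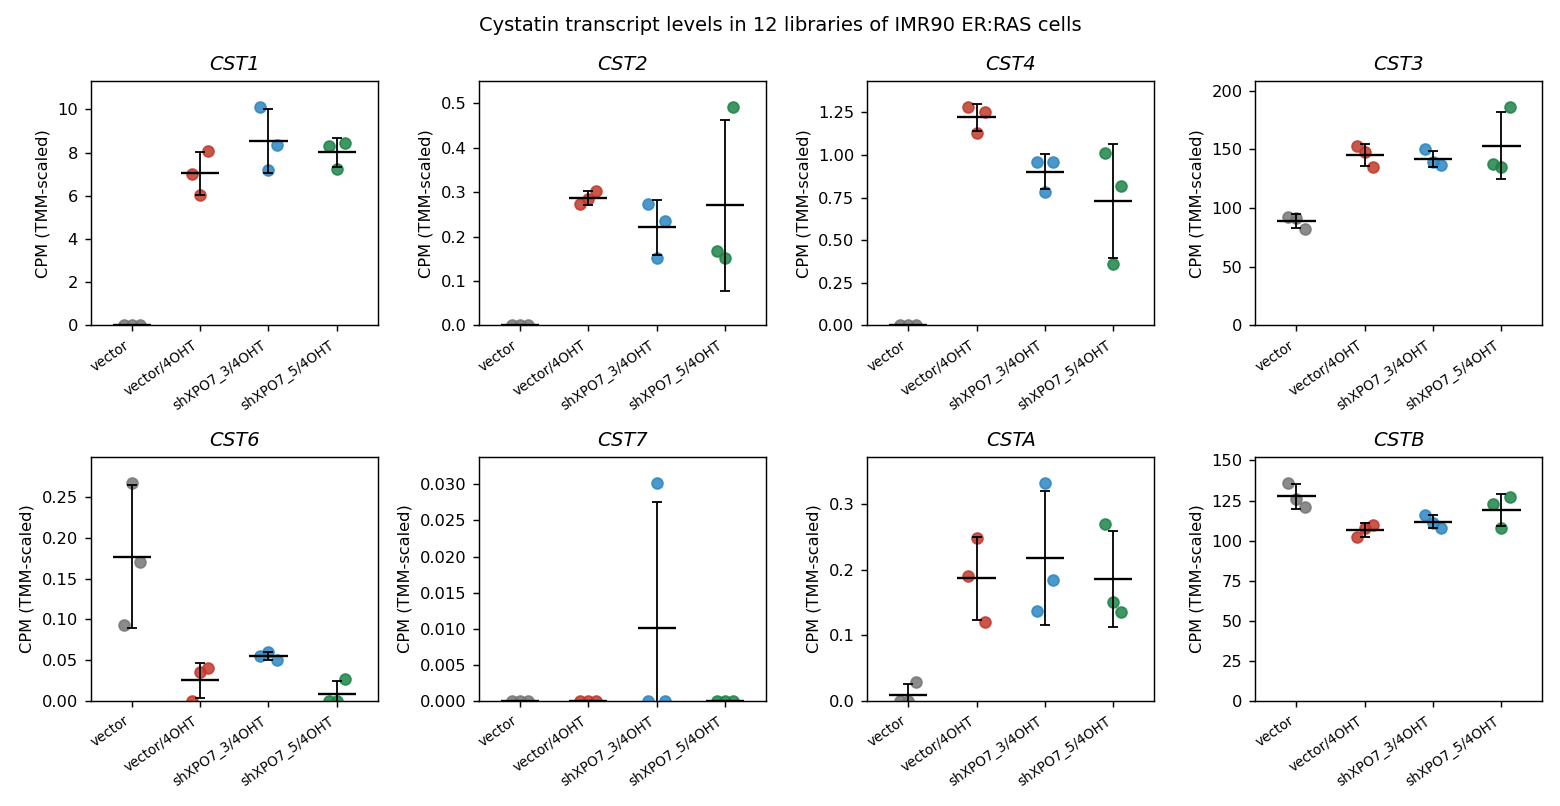
The plot of cystatin levels shows each of the 12 libraries as a point in CPM (y axis, from 0, with its own scale in each panel) by group (x axis), with the group mean as a line and the SD as bars (n = 3). CST1, CST2 and CST4 sit at 0 in the vector group and above it in the 3 groups with 4OHT, CST3 moves from a mean of 88.7 to 145 CPM, and CSTB from 128 to 106 CPM.

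Levels can be set against each other only per length. Per kilobase of merged exons, the vector group had CSTB at 32.5 CPM per kb and CST3 at 24, and the remaining 6 cystatins at 0.233 or less. In vector/4OHT the order was CST3 (39.3 CPM per kb), CSTB (27.0), CST1 (8.06), CST4 (1.63), CST2 (0.383), CSTA (0.136), CST6 (0.0333) and CST7 (0). The ranges of the 3 libraries did not overlap between neighbours in that order down to CSTA. CSTA spanned 0.0882 to 0.181 CPM per kb, still above the highest CST6 library at 0.0532, and CST6 and CST7 both had libraries at 0. The order of the top pair without 4OHT depended on the length used: per kilobase of the transcript with the longest coding sequence, CST3 was at 102 and CSTB at 59.0 CPM per kb in vector, and at 166 and 49.2 in vector/4OHT. CST1 was at 9.25 CPM per kb by that length in vector/4OHT, so its distance from CST3 also depended on the length used. This transcript length was chosen after seeing the data.

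The knockdown comparisons ask whether cystatin levels in induced cells depend on XPO7, and they were not used to choose the genes. Both share the vector/4OHT libraries, so their values are given side by side and not as independent evidence. In shXPO7_3/4OHT against vector/4OHT, 0 of the 4 cystatins tested were called by edgeR's quasi-likelihood test after Benjamini-Hochberg adjustment, against a background of 0.124% of all genes called. At an unadjusted p under 0.05 the count was also 0, against 6.41% of all genes. In shXPO7_5/4OHT against vector/4OHT, 0 of the 4 were called against 0.589% of all genes, and 1, CST4, had an unadjusted p under 0.05, against 21.6% of all genes. DESeq2 called 0 of the 4 cystatins to which it gave an adjusted p with shXPO7_3 (CST1, CST4, CST3 and CSTB) and 0 of 3 with shXPO7_5 (CST1, CST3 and CSTB).

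CST1 kept its induced level in both knockdown groups within the spread of the libraries. The shXPO7_3/4OHT libraries T, A and B were at 10.1, 7.19 and 8.34 CPM and those of shXPO7_5/4OHT at 8.32, 7.25 and 8.46 CPM, both overlapping the 6.03 to 8.05 CPM of vector/4OHT. The log2 fold change was 0.28 (95% CI -0.05 to 0.61, edgeR adjusted p = 0.922) with shXPO7_3 and 0.18 (95% CI -0.15 to 0.51, edgeR adjusted p = 0.432) with shXPO7_5. These intervals still allow a rise of 0.61 and 0.51 on the log2 scale. The CST1 value for shXPO7_5 moved to 0.04 with a correction for GC content and length and to 0.09 without vector/4OHT replicate A, and it was 0.25 without shXPO7_5/4OHT replicate A. The shXPO7_5/4OHT libraries T and B had the strongest GC trends, with Spearman correlations across genes between GC content and log2 level relative to vector/4OHT of 0.594 and 0.767.

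Of the 4 cystatins tested, CST4 had the lowest fold changes against vector/4OHT. Its libraries T, A and B were at 1.28, 1.13 and 1.25 CPM in vector/4OHT. They were at 0.960, 0.785 and 0.961 CPM in shXPO7_3/4OHT and at 1.01, 0.362 and 0.819 CPM in shXPO7_5/4OHT. Both knockdown groups lay wholly below vector/4OHT, a separation seen in either direction in 14.6% of all genes with shXPO7_3 and 26.8% with shXPO7_5. The log2 fold change was -0.43 (95% CI -1.07 to 0.20, edgeR adjusted p = 0.999) with shXPO7_3. With shXPO7_5 it was -0.75 (95% CI -1.42 to -0.08, edgeR adjusted p = 0.213). The exact two-sided permutation test gave p = 0.1 for each, the smallest that 3 against 3 libraries allow. Without the low replicate A the shXPO7_5 value was -0.43 (edgeR adjusted p = 0.169). With a correction for GC content and length it was -0.90 (edgeR adjusted p = 0.118). Over 13 alternatives it ranged from -1.03 to -0.43, and 0 of them called it. CST4 thus failed the adjusted threshold in both comparisons, with an interval that ranges from a fall of more than 1 on the log2 scale to little or no difference.

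CST3 and CSTB, the abundant members, give the tightest intervals. CST3 was at 150, 139 and 137 CPM in the shXPO7_3/4OHT libraries and at 138, 135 and 186 CPM in those of shXPO7_5/4OHT, where replicate B stood above the rest. The log2 fold change was -0.03 (95% CI -0.28 to 0.21) with shXPO7_3 and 0.08 (95% CI -0.17 to 0.32) with shXPO7_5, and the latter was -0.09 without that replicate B and 0.16 without replicate A. CSTB was at 116, 111 and 108 CPM in shXPO7_3/4OHT and at 123, 108 and 127 CPM in shXPO7_5/4OHT. The log2 fold change was 0.07 (95% CI -0.09 to 0.24, edgeR adjusted p = 0.999) and 0.16 (95% CI -0.0006 to 0.33, edgeR adjusted p = 0.232). Without shXPO7_5/4OHT replicate A, CSTB was called at 0.23 (edgeR adjusted p = 0.0415), the single alternative of 14 that called it, in a fit where 3634 genes were called. With a correction for GC content and length, the CSTB value with shXPO7_5 was 0.06 (edgeR adjusted p = 0.45).

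Without shXPO7_3/4OHT replicate T, the log2 fold changes with shXPO7_3 were 0.13 for CST1, -0.48 for CST4, -0.08 for CST3 and 0.04 for CSTB, again with none called.

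Between the shRNAs themselves, 0 of the 4 cystatins were called in shXPO7_5/4OHT against shXPO7_3/4OHT, with 0 at an unadjusted p under 0.05 and 0 called by DESeq2. The background was 0.0131% of all genes called by edgeR and 11.9% at an unadjusted p under 0.05. The log2 differences were -0.09 for CST1 (95% CI -0.42 to 0.24), -0.32 for CST4 (95% CI -0.999 to 0.36), 0.11 for CST3 (95% CI -0.14 to 0.35) and 0.09 for CSTB (95% CI -0.07 to 0.26). For CST2, below the filter, the libraries had 10, 5 and 14 counts in shXPO7_3/4OHT and 5, 5 and 18 in shXPO7_5/4OHT. Their means of 0.220 ± 0.0632 and 0.270 ± 0.192 CPM (SD, n = 3 each) overlapped each other and vector/4OHT.

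**Figure D2:**
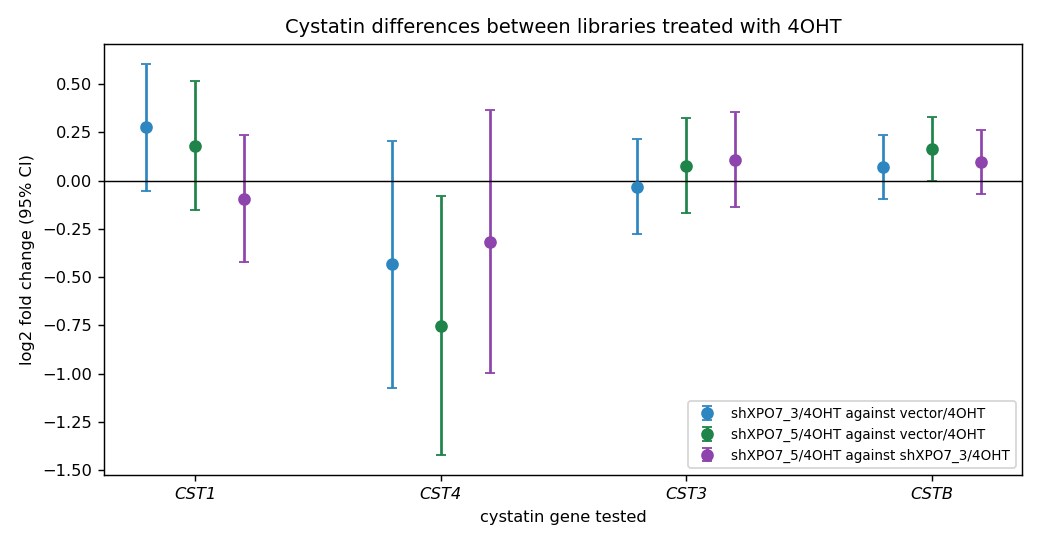
The plot of knockdown differences gives the log2 fold change (y axis) of the 4 cystatins tested (x axis) in 3 comparisons among libraries with 4OHT, as points with 95% confidence intervals from edgeR. All intervals include 0 except that of CST4 in shXPO7_5/4OHT against vector/4OHT, at -0.75 (-1.42 to -0.08), and that of CSTB in the same comparison starts just below 0, at -0.0006.

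CST1 and CST4 may exchange reads, and their ratio within a library, which such exchange would alter, was compared as a description. CST4 had 18.3, 18.8 and 15.5 counts per 100 CST1 counts in the vector/4OHT libraries T, A and B. It had 9.49, 10.9 and 11.5 in shXPO7_3/4OHT, and 12.1, 5.00 and 9.68 in shXPO7_5/4OHT. The libraries of both knockdown groups lay below those of vector/4OHT, which the 2 comparisons share, and the same holds without shXPO7_3/4OHT replicate T or shXPO7_5/4OHT replicate A. Single genes separated this fully, in either direction, in 14.6% of all genes with shXPO7_3 and 26.8% with shXPO7_5. How often ratios of gene pairs do so was not determined, so no shift in the share of CST4 is read from it. The group means of the ratio were 17.6 ± 1.76, 10.6 ± 1.04 and 8.94 ± 3.63 (SD, n = 3 each). The mean log2 ratio differed by -0.72 with shXPO7_3 and by -1.04 with shXPO7_5 (exact two-sided permutation p = 0.1 for each, the smallest possible), and by -0.33 between the shRNAs (exact permutation p = 0.7). Pooled over the group, CST4 made up 14.6% of the CST1 and CST4 counts in vector/4OHT (95% exact binomial interval 12.4 to 17.0%), 9.67% in shXPO7_3/4OHT (8.07 to 11.5%) and 8.29% in shXPO7_5/4OHT (6.54 to 10.3%), with intervals that cover counting error only. The GC content of the longest annotated transcript is 58.3% in CST1 and 58.5% in CST4.

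For CST2 the same ratio was 4.12 ± 0.513 counts per 100 CST1 counts in vector/4OHT, 2.55 ± 0.390 in shXPO7_3/4OHT and 3.30 ± 2.17 in shXPO7_5/4OHT (SD, n = 3 each). The shXPO7_3/4OHT libraries did not overlap vector/4OHT (difference in mean log2 ratio -0.68, exact permutation p = 0.1, the smallest possible). Those of shXPO7_5/4OHT did, from 2.02 to 5.81 (difference -0.46, exact permutation p = 0.4). With 5 to 18 CST2 counts per library, differences of this size were not resolved.

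**Figure D3:**
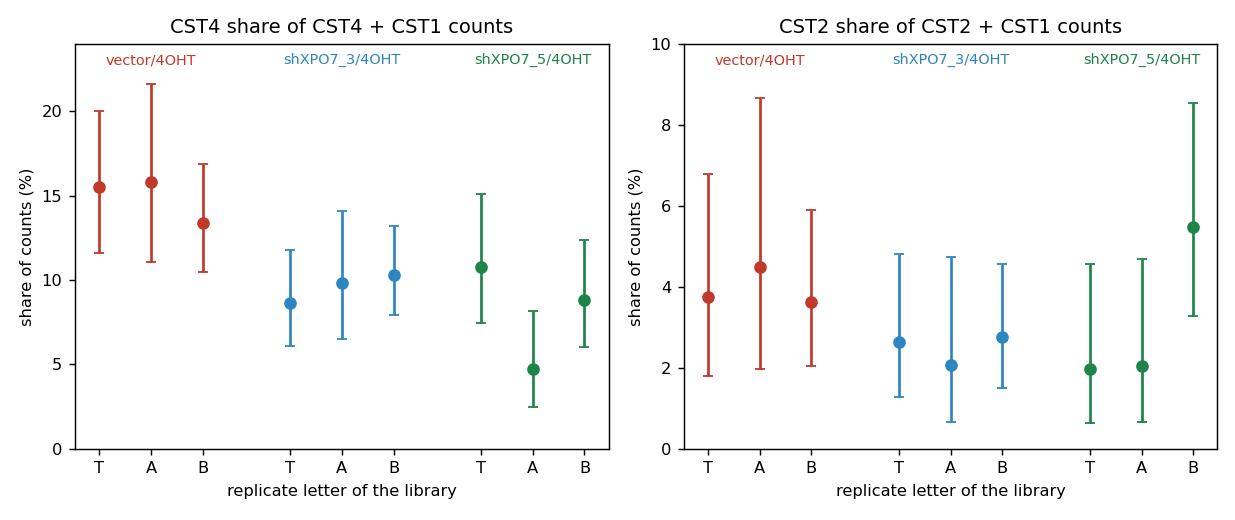
The plot of shares gives CST4 as a percentage of CST4 plus CST1 counts (left) and CST2 as a percentage of CST2 plus CST1 counts (right) in each of the 9 libraries with 4OHT (x axis, replicate letters by group), with 95% exact binomial intervals. For CST4 the 3 vector/4OHT libraries lie above all 6 knockdown libraries, whereas for CST2 the shXPO7_5/4OHT replicate B lies above vector/4OHT.

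The targets of the cystatins are the cysteine cathepsins and, for some members such as CST6 and CST3, the asparaginyl protease legumain (LGMN). Of 12 listed, 11 passed the filter, the exception being the lymphocyte protease CTSW. In vector/4OHT against vector, 7 of these 11 were called by edgeR, 4 higher and 3 lower, where 50.9% of all genes were called. Their median log2 fold change was 0.04 against -0.01 over all genes. This list too was chosen with earlier results of these data known, so its differences with 4OHT and their p-values are given as a description. Nothing is read from the count of 7 of 11, which lies near the share over all genes.

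CTSS (cathepsin S), an elastolytic enzyme of antigen-presenting cells, rose the most of the list. It was at 4.11, 4.18 and 3.46 CPM in the vector libraries and at 21.0, 20.2 and 21.3 CPM in vector/4OHT, which is 2.41 on the log2 scale (SE 0.094, edgeR adjusted p = 8.39e-10). The lysosomal endopeptidases CTSB and CTSL rose by 1.19 (SE 0.091) and 0.97 (SE 0.065), with group means that went from 1110 to 2530 CPM and from 146 to 287 CPM. CTSK, the collagen-degrading cathepsin of osteoclasts, rose by 0.83 (SE 0.069). CTSF fell by 0.52 (SE 0.13) and LGMN fell by 0.66 (SE 0.13). Without vector replicate T, the log2 fold change was -0.40 for CTSF and -0.51 for LGMN. CTSV fell by 1.14 (SE 0.41, edgeR adjusted p = 0.0346), from 51 counts over the vector group to 24, and lost its call in 7 of 13 alternatives, namely without vector replicate A or C, without vector/4OHT replicate A or B, with the replicate block, with no filter and with DESeq2. CTSC, CTSH, CTSO and CTSZ were not called. With the correction for GC content and length, CTSZ was called at 0.21 and CTSO at -0.21 on the log2 scale (edgeR adjusted p = 0.00845 and 0.00761). Per kilobase of merged exons, CTSB was at 340, CTSL at 121, CTSK at 77 and CTSS at 4.93 CPM per kb in vector/4OHT.

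With XPO7 knockdown, 0 of the 11 proteases were called by edgeR in shXPO7_3/4OHT, where 0.124% of all genes were called, and 1 in shXPO7_5/4OHT, where 0.589% were. CTSC, CTSH and CTSK had an unadjusted p under 0.05 with shXPO7_3, against 6.41% of all genes, and DESeq2 called CTSK and CTSC there. With shXPO7_5 the 4 genes CTSC, CTSH, CTSK and CTSO had an unadjusted p under 0.05, against 21.6% of all genes. The called gene was CTSH, an aminopeptidase cathepsin. Its libraries were at 2.68, 1.84 and 2.12 CPM in vector/4OHT, 3.98, 2.90 and 3.07 CPM in shXPO7_3/4OHT, and 4.78, 4.53 and 5.05 CPM in shXPO7_5/4OHT. Each shXPO7_5/4OHT library was above each library of the other groups. Full separation from vector/4OHT, in either direction, was seen in 26.8% of all genes with shXPO7_5. CTSH rose by 1.11 (SE 0.17, edgeR adjusted p = 0.0164) with shXPO7_5 and was at 0.57 (SE 0.17, edgeR adjusted p = 0.357) with shXPO7_3. The call for shXPO7_5 was lost when any of the vector/4OHT libraries or shXPO7_5/4OHT replicate T or B was left out (edgeR adjusted p = 0.0626 to 0.092) and in a fit of these groups alone (edgeR adjusted p = 0.0565). It stood without replicate A (edgeR adjusted p = 0.0168), while the log2 value stayed at 0.99 to 1.26 in all 14 alternatives. Between the shRNAs, 0 of the 11 were called by edgeR and 0 by DESeq2, and 3 had an unadjusted p under 0.05, against backgrounds of 0.0131% of all genes called by edgeR and 11.9% at an unadjusted p under 0.05.

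**Figure D4:**
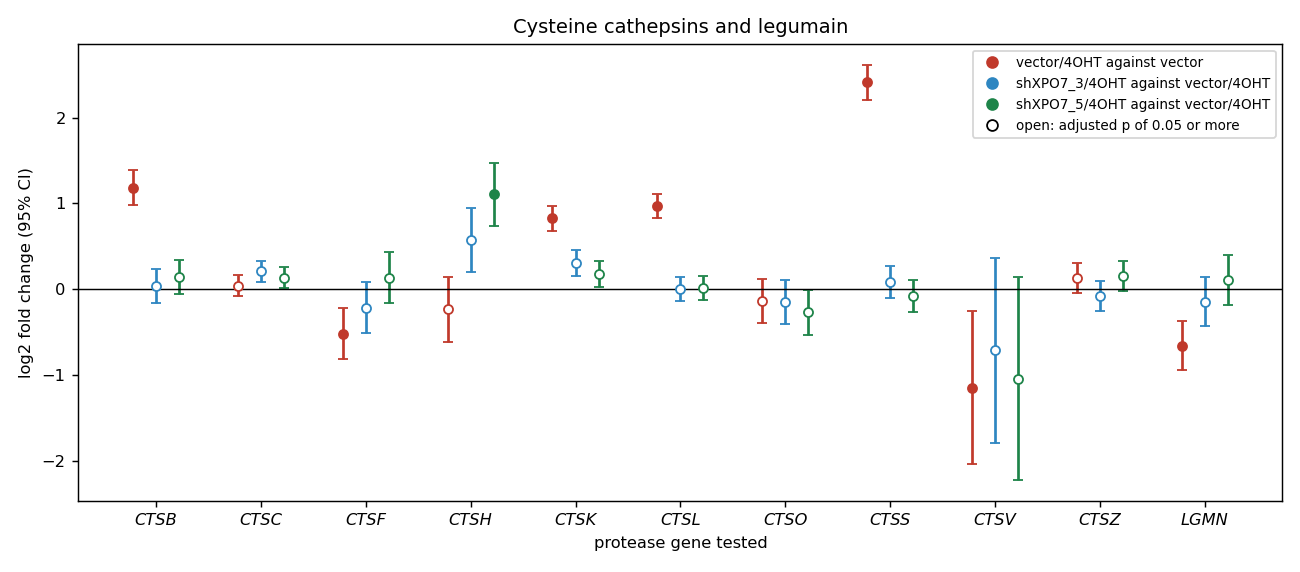
The plot of proteases gives the log2 fold change (y axis) of the 11 cathepsin and legumain genes tested (x axis) in 3 comparisons, as points with 95% confidence intervals from edgeR and filled where the adjusted p is under 0.05. CTSS, CTSB, CTSL and CTSK lie above 0 with 4OHT, CTSF, CTSV and LGMN below, and CTSH at 1.11 is the filled point among the knockdown comparisons.

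The genes whose levels followed those of each tested cystatin most closely over the 12 libraries were found by Pearson correlation of log2 CPM, as a description. The libraries share their group and their depth across genes, and the split between vector and the induced groups weighs heavily in the correlation. For CST1 these were GFPT2, BHLHE40 and PLAT (r = 0.999 each), for CST4 BTRC (0.992), NPC1 (0.991) and LINC01128 (0.991), for CST3 SPRED3 (0.991), MAFK (0.989) and ECE2 (0.983), and for CSTB RPL30 (0.983), UXT (0.982) and NUP93 (0.980). By Spearman correlation, 0 of the 3 remained for CST1 and CST4, 1 for CST3 and 2 for CSTB.

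Outside the 8 members, the listed genes of the cystatin superfamily were close to silent in these fibroblasts. Of 17 further genes and pseudogenes listed, 16 were found in the table, and those with any count were CST9L, CSTL1 and the plasma proteins KNG1, AHSG, FETUB and HRG, with at most 9 counts in a library.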

How the data were processed

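RNA-seq libraries of IMR90 ER:RAS cells (12 libraries, 4 groups of 3, grouped by the sample labels) were analysed from 1 table of raw gene counts deposited by the authors. Per the submitters' processing notes, the tools were featureCounts 1.18.0, TopHat2 2.0.11 and CASAVA 1.8.4, with hg19 and GRCh37 given as builds. Also, the labels name an mRNA stranded kit. The counts are not normalised. The strand setting and the handling of multiply mapped reads are not stated in the labels or methods. The table had 62161 entries, of which 92 ERCC spike-in entries, all 0, were left out. Symbols were joined by Ensembl ID. Positions, lengths and transcripts come from GENCODE 29 on GRCh38, a later build than that of the counts. The cystatin sequences themselves are not reported here.

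Counts were tested in R 4.3.3 with edgeR 4.0.16 (filterByExpr with a minimum count of 10, TMM factors, glmQLFit and glmQLFTest, all 12 libraries in 1 fit), with Benjamini-Hochberg adjustment over 15284 genes at 0.05 and 95% intervals. CPM values use TMM-scaled totals. Alternatives were other scalings and filters, the replicate letter as a block, a GC and length correction (splines with 5 df), fits of 2 groups, leaving out each library, and DESeq2 1.42.0. Scripts were tested on simulated counts. Single ratios were compared by exact permutation of 3 against 3 libraries. Within each group the libraries differed by more than sampling noise (chi-square of counts), so no pair was counted as 1 library deposited more than once, which does not show that they were separate cultures. Depth limits the rare cystatins most: binomial intervals cover counting error only, and fold limits cover only that of the vector group.

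The cystatins and all lists were chosen with earlier results of these data known. Named genes are the 8 cystatins, XPO7, listed proteases and cystatin relatives, genes beside the chromosome 20 cystatins, listed markers, and for each tested cystatin the 3 genes with the highest Pearson correlation among genes whose mean log2 CPM reached 2.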

Additional observations from a re-analysis of the deposited data

How the results depend on the processing

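For the cystatins, the count called in shXPO7_3/4OHT against vector/4OHT and in shXPO7_5/4OHT against shXPO7_3/4OHT was 0 under all 14 alternatives. In shXPO7_5/4OHT against vector/4OHT it was 0 to 1 with 1 library left out, the 1 being CSTB without replicate A. In vector/4OHT against vector, DESeq2 called 6 instead of 4, with CST2 and CSTA added. By edgeR, 7 instead of 4 were called with no filter beyond 1 count and 3 with at least 1 CPM required in 6 libraries, which removes CST4 (4 to 5 with 1 library left out). CSTB dropped out of that count without vector replicate T and without vector/4OHT replicate T, where CST2 entered it. Directions turned for small differences. CSTB between the shRNAs went to -0.004 on the log2 scale with the GC and length correction. With 1 library left out, the log2 fold change of CST3 with shXPO7_3 ranged from -0.0878 to 0.0063 and with shXPO7_5 from -0.0871 to 0.1617, and between the shRNAs CST1 ranged from -0.2001 to 0.0474, CST4 from -0.6 to 0.0072 and CST3 from -0.0501 to 0.1943. The libraries whose absence turned them were vector/4OHT replicate T for the first, shXPO7_3/4OHT replicate T for CST1, and shXPO7_5/4OHT replicate A for CST4 and B for the others. Counts over all genes moved more. With shXPO7_3 the count of 19 became 8 with upper-quartile factors, 30 with no filter, 334 with the GC and length correction, 2 in a fit of these groups alone, 97 with DESeq2 and 1 with any library left out. With shXPO7_5 the count of 90 became 217 with no filter, 482 with the GC and length correction, 10 in a fit of these groups alone, 458 with DESeq2 and 2 to 3634 with 1 library left out. Between the shRNAs the count of 2 became 20, 40, 0 and 28 in that order of settings and 1 to 4 with 1 library left out. Of the proteases, the count with shXPO7_3 became 1 with the GC and length correction and 2 with DESeq2. That with shXPO7_5 became 2 with the GC and length correction, 0 in a fit of these groups alone and 0 to 2 with 1 library left out. Under the GC and length correction CTSK was called with both shRNAs. Its log2 fold change there was 0.33 with shXPO7_3 (edgeR adjusted p = 0.00788) and 0.23 with shXPO7_5 (edgeR adjusted p = 0.0394). The causes were not tested. With the replicate block the genes called with shXPO7_5 were 149, and it changed no call of a cystatin, while CTSV lost its call. Libraries with the same letter had correlations of their deviations from -0.633 to 0.879, and 4 of 12 libraries correlated best with their own letter, so the letters were not taken as pairs. CST4 per 100 CST1 counts was 20.4, 12.4 and 10.4 per length in vector/4OHT, shXPO7_3/4OHT and shXPO7_5/4OHT. The filter on low counts left CST2, CST6, CST7 and CSTA untested, and without it CST2, CST6 and CSTA were the 3 further genes called with 4OHT.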
